A study of Sus scrofa with 8 samples.

Results

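The genes described here encode proteins of the Z-disc, the M-band and the thick filament of striated muscle, namely ACTN2, NEB, MYOZ2, CSRP3, SYNPO2L, MYOM1, SMPX, MYBPC1, MYBPC3 and TTN. They were matched by symbol to the 21301 genes of the deposited matrices, where 9 of the 10 had a row. TTN, which encodes titin, was matched to no row, so that its promoter is described but its expression was not analysed here. The libraries were 10x Chromium single-cell RNA libraries of pig embryos, 1 for each of 4 stages in each of 2 breeds. The tissue was somite at embryonic days 16, 18 and 21 (E16, E18, E21) and myotome, the skeletal muscle compartment of a somite, at day 28 (E28). ZZ stands for Tibetan pigs and DZ for the cross of Duroc with Tibetan pigs, and every library was a pool of 5 embryos from a single sow. Each stage of a breed, such as E16-ZZ, was thus 1 library with no replicate of its own, and p-values measure the spread between libraries of different stages and breeds. In the tests of genes that spread was estimated with information shared over genes, the more so where few libraries entered. For stages, the 4 libraries of E16 and E18, called early, were set against the 4 of E21 and E28, called late. For breeds, 4 libraries were set against 4 within stages. Where values are given in pairs by stage, ZZ comes first and DZ second.

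The sarcomere is the contractile unit of striated muscle. Thin filaments of actin are anchored end to end at the Z-disc, where alpha-actinin cross-links them, and thick filaments of myosin are held in register at the M-band, where myomesin links them. Myosin-binding protein C decorates the thick filament, with separate genes for the slow skeletal and the cardiac form. Skeletal muscle cells of the embryo arise from PAX3-expressing progenitors that become myoblasts under MYF5 and MYOD1 and then, under MYOG, fusing myocytes. The heart is the other striated muscle of the embryo and builds its sarcomeres earlier.

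The 74147 cells kept, of 90688 barcodes, numbered 5436 to 10956 per library, with 39852689 to 57568710 unique molecular identifiers (UMIs, distinct RNA molecules) per library and a median of 3405 to 6160.5 UMIs per cell. In E16-ZZ, 39.16% of barcodes were over the limit of 10% mitochondrial UMIs and were removed, against 1.05% to 9.15% in the other 7 libraries. Of 89679 distinct barcode sequences, 1001 (1.116%) occurred in 2 or more libraries. Cell Ranger was version 3.1.0 for E16 and 3.0.2 for the later stages per the file headers, so the version cannot be told apart from E16, nor myotome from E28.

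Cells were assigned to muscle types by UMIs of genes that are not among those described. Myocytes had at least 2 UMIs of MYOG and MYMK, the myogenic regulator and the fusion factor of muscle. Myoblasts had at least 1 UMI of MYF5 or MYOD1 and none of MYOG and MYMK. Progenitors had PAX3 together with a somite gene and none of these 4 nor of SOX10. Cardiac cells had at least 5 UMIs over at least 2 of NKX2-5, NPPB and TNNI3, a cardiac transcription factor, a natriuretic peptide and the cardiac troponin I. A wider cardiac gate, added after the counts had been seen because the first held few cells at E18, took cells with at least 1 UMI of NKX2-5 or NPPB and at least 10 UMIs of TNNT2, MYL4 and MYH7. Endothelial cells, which should lack the genes described, were gated by at least 3 of 8 endothelial genes. A cell that met more than 1 of the myocyte, cardiac and endothelial gates was left out of each. An endothelial cell that met the progenitor or myoblast gate was left out too. The myocyte gate held 1 and 2 cells at E16 and 59 and 95 cells at E18. It held 280 and 255 cells at E21 and 502 and 1022 cells at E28. The cardiac gate held 29 and 102 cells at E16, 15 and 9 at E18 and none later, where none found allows at most 0.0274% to 0.0326% of cells. The wider gate held 74 and 240 cells at E16, 58 and 28 at E18 and none later. The share of cells in the myocyte gate was 0.421% ± 0.488 (SD, n = 4) in early and 4.96% ± 3.11 (SD, n = 4) in late libraries, and in the cardiac gate 0.466% ± 0.448 and 0. Both shares differed in a two-sided exact permutation test of the libraries (p = 0.0286, the smallest that 4 against 4 allows).

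The labels of the myocyte and cardiac gates were checked with marker genes outside them. Of a skeletal list of 12 genes, 9 had a row, and their summed level was 3564 to 6945 CPM (counts per 1000000 UMIs of a sum) in the 6 myocyte sums, made where a gate held at least 20 cells, and 1062 to 1408 CPM in the 2 cardiac sums. CHRNA1, the alpha subunit of the muscle acetylcholine receptor, was at 179 to 313 CPM in myocytes and at 0 in cardiac cells. Of a cardiac list of 10 genes, 9 to 10 were found in cardiac cells, at a summed 24159 to 27693 CPM, and 4 to 7 in myocytes, at 1031 to 1981 CPM. In this list SLC8A1, the cardiac sodium-calcium exchanger, was at 237 to 253 CPM against 0 to 1.75 CPM. TBX5 and TBX20, cardiac transcription factors, were at 0 in all 6 myocyte sums. TNNT2 and MYL4, which are in this list, are also in the wider gate. The cardiac cells also carried genes of the smooth muscle list (8761 to 9121 CPM, against 1990 to 2634 CPM in myocytes) and of the epithelial list (2859 to 2919 CPM, against 1.2 to 592 CPM), and the myocytes genes of the neural list (1209 to 2603 CPM, against 423 to 438 CPM in cardiac cells). The progenitor sums carried genes of the fibroblast list at 302 to 6921 CPM and of the neural list at 275 to 2745 CPM, both highest in E28-DZ, and genes of the erythroid list at 8105 CPM in E16-ZZ and 38.8 to 1518 CPM in the others. Their part in the results was not tested.

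The promoters of 4 of the genes are shown because myocytes or cardiac cells held at most 2 of their UMIs. The 131 cells of the first cardiac gate, with 865756 UMIs of all genes, held 0 of NEB, 1 of MYOZ2 and 0 of MYBPC1. In the pooled myocytes these 3 genes were at 862, 293 and 129 CPM. The 2213 myocytes, with 13773416 UMIs of all genes, held 2 of MYBPC3, which was at 735 CPM in the pooled cardiac cells. The tests further on called NEB, MYOZ2 and MYBPC3, while MYBPC1 did not pass with the first cardiac gate and had 4 UMIs in E18 myocytes. The sequences are the 250 bases before the RefSeq gene start on Sscrofa11.1, written along the strand of the gene. They lie at chr15:545937-546186 (plus strand) for NEB, chr8:104609368-104609617 (minus strand) for MYOZ2, chr5:82651238-82651487 (minus strand) for MYBPC1 and chr2:15247429-15247678 (plus strand) for MYBPC3. Capitals mark E-boxes (CANNTG), M-CAT motifs (CATTCC), MEF2 boxes and CArG boxes, searched on both strands.
NEB: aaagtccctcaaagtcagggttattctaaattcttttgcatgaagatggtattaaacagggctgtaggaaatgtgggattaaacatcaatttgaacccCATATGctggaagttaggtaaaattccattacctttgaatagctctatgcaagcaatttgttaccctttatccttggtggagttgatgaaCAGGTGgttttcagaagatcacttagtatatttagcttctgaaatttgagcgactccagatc
MYOZ2: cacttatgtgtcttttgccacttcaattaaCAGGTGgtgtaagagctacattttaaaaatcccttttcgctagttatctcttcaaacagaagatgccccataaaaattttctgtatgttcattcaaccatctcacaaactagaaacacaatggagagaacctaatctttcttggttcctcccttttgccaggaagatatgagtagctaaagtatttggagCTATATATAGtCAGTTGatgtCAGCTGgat
MYBPC1: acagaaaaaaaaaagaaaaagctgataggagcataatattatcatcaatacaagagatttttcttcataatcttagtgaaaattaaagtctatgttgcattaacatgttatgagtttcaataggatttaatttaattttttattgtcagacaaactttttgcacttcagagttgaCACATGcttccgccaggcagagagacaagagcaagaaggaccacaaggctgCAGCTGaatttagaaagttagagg
MYBPC3: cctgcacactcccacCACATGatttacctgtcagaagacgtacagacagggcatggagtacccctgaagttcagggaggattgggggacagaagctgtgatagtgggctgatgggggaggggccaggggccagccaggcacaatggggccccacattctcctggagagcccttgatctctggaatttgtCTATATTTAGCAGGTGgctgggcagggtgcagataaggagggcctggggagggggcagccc
An E-box, the motif bound by myogenic factors such as MYOD1 and MYOG among many others, stood in the window of all 10 genes and in 61.9% of the 19531 promoters of the same length in the RefSeq table. A MEF2 box, the motif of the MEF2 factors of muscle, stood in 6 of the 10 (MYOZ2, SYNPO2L, SMPX, MYOM1, MYBPC3 and TTN) and in 2.5% of all promoters. It began 30 bases before the start of MYOZ2, and in MYBPC3 it began 61 bases before the start and ran directly into an E-box. The windows of NEB, MYBPC1, ACTN2 and CSRP3 held no MEF2 box. An M-CAT motif stood in the window of MYOM1 (10.3% of all promoters), and a CArG box in none of the 10 (1.3% of all). A match of letters is a description and not a binding site, and no match says only that these letters are not in the window.

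Over whole libraries, 5 of the 9 genes were higher in late than in early libraries and 1 was lower by edgeR's quasi-likelihood test on summed UMI counts with Benjamini-Hochberg adjustment at 0.05, with the breed as a covariate. Among all 14682 genes tested, 16.7% were higher and 17.7% were lower. MYOZ2, NEB, ACTN2, SYNPO2L and MYBPC1 rose, MYBPC3 fell, and CSRP3, SMPX and MYOM1 did not pass. In whole libraries, more cells of a type and more RNA per cell cannot be told apart. Other cell types differed between the same groups, with the epithelial list (5 of 5 genes found) at a summed 1976 to 6918 CPM in early and 5.1 to 118 CPM in late libraries, and the neural list (4 to 5 of 5) at 165 to 594 CPM and 793 to 3368 CPM. Their part in the differences was not tested. Levels below are CPM of the raw sums, and log2 differences are those of the fit. Levels are not compared between genes, and the share of cells in which a gene is found depends on its level.

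Of the Z-disc genes, MYOZ2 encodes myozenin 2, which binds alpha-actinin and calcineurin. Its level was 0.125 and 0.035 CPM at E16, 0.538 and 0.568 CPM at E18, 16.6 and 12.7 CPM at E21, and 21.0 and 51.9 CPM at E28. The groups did not overlap, and the log2 difference was 6.09 (SE 0.79, adjusted p = 0.00262). NEB, the giant nebulin that runs along the thin filament of skeletal muscle, was at 1.13 and 1.10 CPM at E16, 9.76 and 19.7 CPM at E18, 63.1 and 51.1 CPM at E21, and 83.1 and 135 CPM at E28. It was low at E16, intermediate at E18 and high in every late library (log2 difference 3.32, SE 0.88, adjusted p = 0.0232). ACTN2, an alpha-actinin of cardiac and skeletal muscle that cross-links actin, was at 9.71 and 15.0 CPM at E16 and 5.42 and 5.51 CPM at E18. It was at 31.4 and 26.4 CPM at E21, and 53.8 and 119 CPM at E28. Its early values were highest at E16 and the late ones highest at E28, without overlap (log2 difference 2.43, SE 0.54, adjusted p = 0.0129). SYNPO2L, an actin-associated Z-disc protein related to synaptopodin, ranged from 4.76 to 7.85 CPM in early and from 11.6 to 37.3 CPM in late libraries (log2 difference 1.38, SE 0.32, adjusted p = 0.0137).

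Of the thick filament genes, MYBPC1, the slow skeletal myosin-binding protein C, was at 0.828 and 0.365 CPM at E16, 1.60 and 1.61 CPM at E18, 11.5 and 8.04 CPM at E21, and 7.23 and 20.8 CPM at E28. All late values lay above all early ones (log2 difference 3.23, SE 0.52, adjusted p = 0.00457). MYBPC3, the cardiac form, was at 8.16 and 17.4 CPM at E16, 4.66 and 2.31 CPM at E18, 0.295 and 0.283 CPM at E21, and 0.139 and 0.095 CPM at E28. It was highest at E16 and fell to 4 to 13 UMIs per library at E21 and E28 (log2 difference -5.50, SE 0.80, adjusted p = 0.00339).

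CSRP3, SMPX and MYOM1 did not pass the test and their groups overlapped. CSRP3, the muscle LIM protein of the Z-disc, was at 7.98 and 13.1 CPM at E16, 3.63 and 1.84 CPM at E18, 4.88 and 8.84 CPM at E21, and 8.53 and 17.8 CPM at E28. Its level was lowest at E18 in both breeds (late against early adjusted p = 0.745). SMPX, a small muscle protein of the costamere encoded on the X chromosome, was likewise lowest at E18 in both breeds, with 8.58 and 14.2 CPM at E16, 4.53 and 2.84 CPM at E18, 5.45 and 5.40 CPM at E21, and 8.93 and 20.9 CPM at E28 (adjusted p = 0.880). MYOM1, the myomesin of the M-band, ranged from 2.25 to 9.93 CPM in early and from 7.14 to 21.4 CPM in late libraries (log2 difference 1.04, SE 0.50, adjusted p = 0.137).

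**Figure D1:**
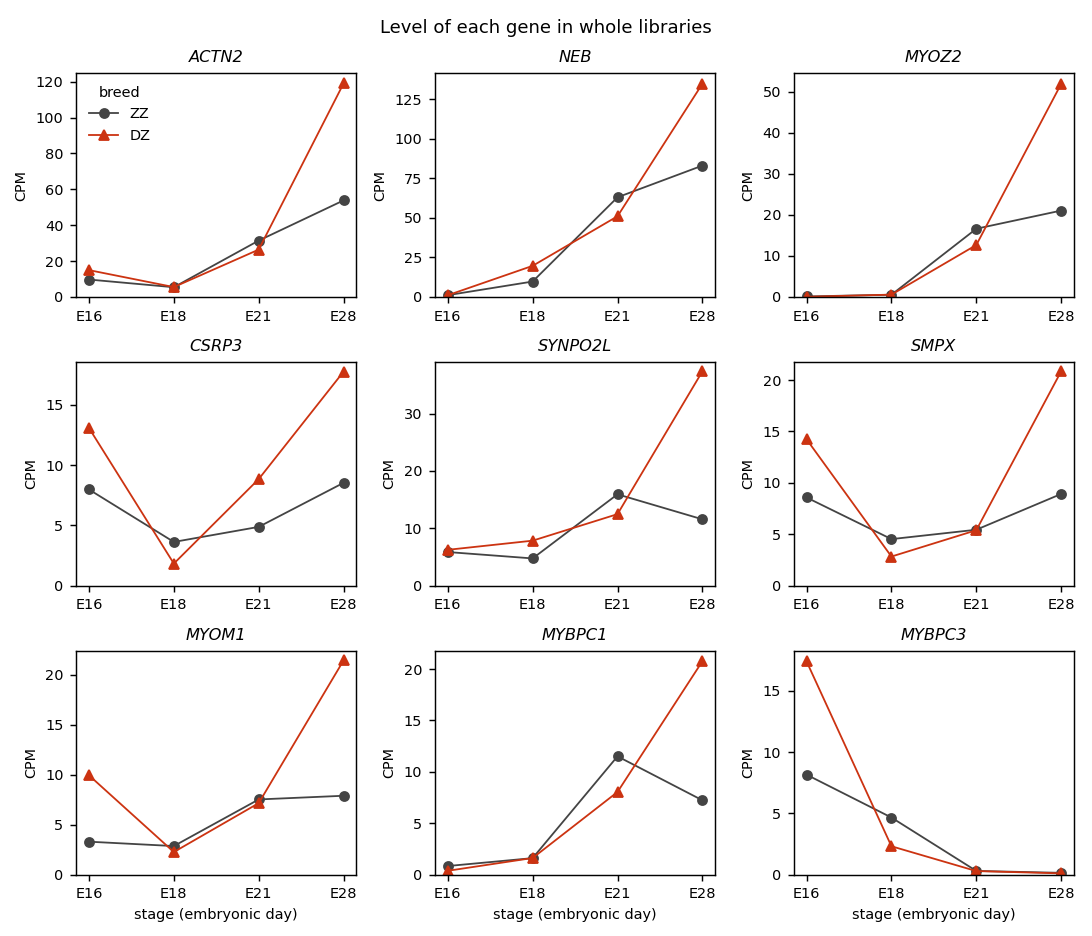
Level of each gene (CPM, y axis) in the 8 whole libraries by stage (x axis), 1 point per library with the breeds joined by lines. NEB, MYOZ2, MYBPC1 and ACTN2 are highest at E21 and E28, MYBPC3 is highest at E16, and CSRP3 and SMPX dip at E18.

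Cells of the wider cardiac gate were found in early libraries alone, so leaving them out lowers the early levels and not the late ones. In such a fit, chosen after seeing the data, CSRP3, MYOM1 and SMPX passed as higher in late libraries (log2 differences 3.08, 2.99 and 1.73, adjusted p = 0.00159, 0.0025 and 0.0198). The direction of that shift was set by the cells removed, and 16.9% of 14679 genes were higher and 17.8% lower in the fit. MYBPC3 was still lower (log2 difference -3.31). Without the E28 libraries, 3 of the 9 genes were higher, against 9.44% of 14923 genes (7.65% were lower), and NEB (adjusted p = 0.112) and ACTN2 (adjusted p = 0.0738) did not pass. NEB also missed the threshold when E28-ZZ (adjusted p = 0.0510) or E28-DZ (adjusted p = 0.0637) alone was left out, and SYNPO2L when both E16 libraries were (adjusted p = 0.0822).

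The cells that held the UMIs changed between stages. At E16 the wider cardiac gate, with 74 cells in E16-ZZ and 240 cells in E16-DZ, held 84.7% and 87.7% of the UMIs of MYOM1, 91.8% and 89.9% of CSRP3, 76.0% and 73.8% of SMPX, and 79.4% and 85.1% of MYBPC3. Of ACTN2 it held 63.3% and 76.6%, of SYNPO2L 35.04% and 68.9%, and of NEB none. At E18 the UMIs of the genes found in both muscles were spread more widely. The cardiac and the myocyte gates held 56.7% and 25% of those of MYOM1 in E18-ZZ and 20.2% and 49.6% in E18-DZ. Of ACTN2 they held 38.1% and 22.4% in E18-ZZ and 13.1% and 28.9% in E18-DZ, and 37.8% and 55.3% lay outside the cardiac, myocyte and myoblast gates. The share outside these gates was 37.9% and 42.0% for SMPX, 32.9% and 39.5% for SYNPO2L and 11.5% and 17.5% for CSRP3. At E21 and E28, with no cardiac cell found, the myocyte gate held 82.7% to 94.3% of the UMIs of MYOM1, MYOZ2, CSRP3, SMPX, MYBPC1 and ACTN2, and 76.7% to 83.2% of those of SYNPO2L. NEB was more widely spread, with 67.3% to 80.5% in myocytes and a further 9.92% to 21.1% in myoblasts.

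**Figure D2:**
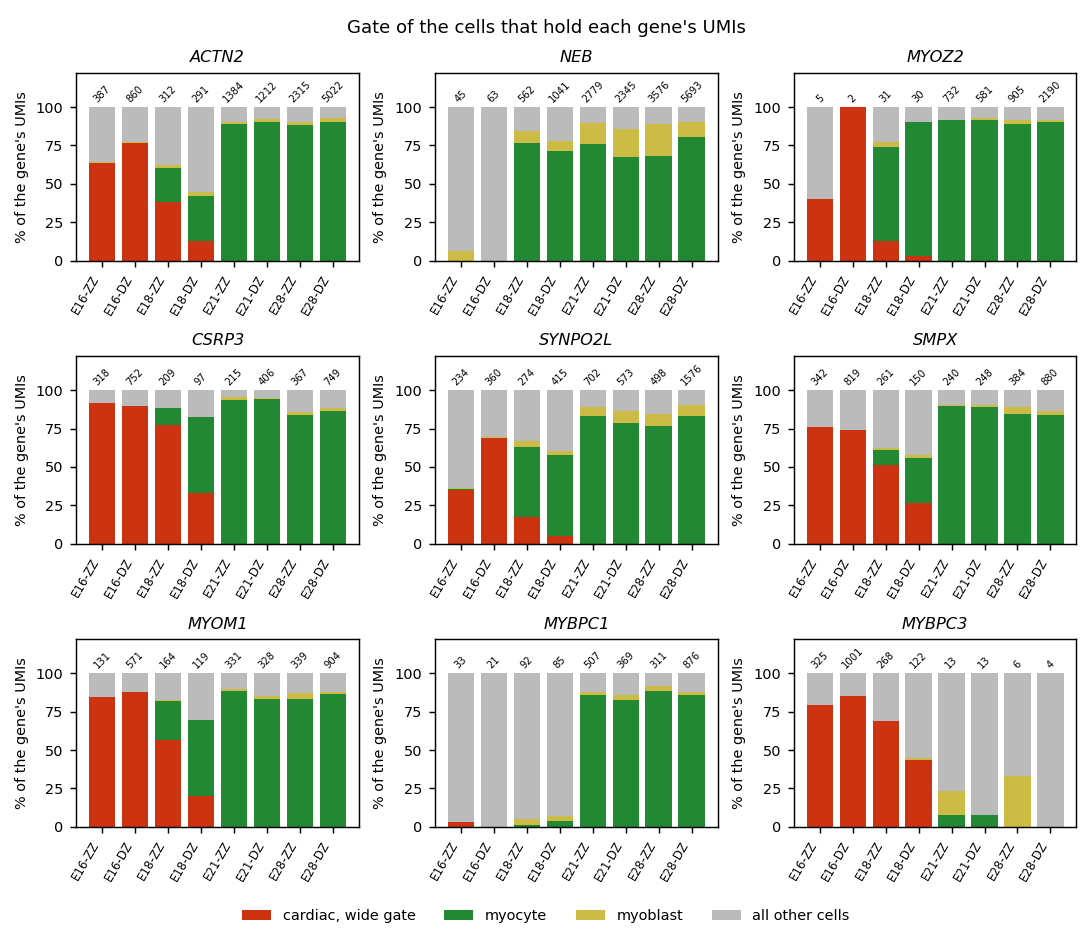
Share of each gene's UMIs (%, y axis) found in cells of the wider cardiac gate, the myocyte gate, the myoblast gate and all other cells, in each of the 8 libraries (x axis), with the gene's number of UMIs above each bar. Cardiac cells hold most UMIs of CSRP3, SMPX, MYOM1, MYBPC3 and ACTN2 at E16, and myocytes hold most UMIs of every gene other than MYBPC3 at E21 and E28.

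The few early UMIs of MYBPC1 lay mostly outside the muscle gates, where most early cells also lay. Of its 33 and 21 UMIs at E16 and 92 and 85 UMIs at E18, between 92.9% and 100% lay outside the cardiac, myocyte and myoblast gates. For NEB that was so at E16 (93.3% of 45 and 100% of 63 UMIs), while at E18 myocytes held 76.3% and 71.1% of its 562 and 1041 UMIs. In E18-ZZ, 81 of the MYBPC1 UMIs lay in 71 cells of no gate, at most 4 in a cell, and 96.3% of them in cells with neither skeletal nor cardiac contractile genes (fewer than 5 UMIs of MYH3 and MYL1, fewer than 10 of TNNT2, MYL4 and MYH7). The share of such cells among all cells of no gate was not counted. With the wider cardiac gate, cells of no gate were 4760 of 5436 and 8039 of 9506 at E16. At E18 they were 8401 of 9300 and 8477 of 9410. With the first gate, MYBPC1 was at 0.445 to 0.952 CPM in cells of no gate at E16 and 1.62 to 1.63 CPM at E18. NEB was at 1.16 to 1.25 CPM in them at E16. E18 myocytes held MYBPC1 at 1.94 and 5.13 CPM, on 4 UMIs. The shares above follow in part from these numbers of cells.

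Myocytes and cardiac cells were compared in 6 myocyte sums (E18, E21 and E28) and 2 cardiac sums (E16). NEB and MYOZ2 were higher in myocytes, and MYBPC3, SMPX, CSRP3 and MYOM1 were higher in cardiac cells, 2 and 4 of the 9 genes, while 5.76% of all 8980 genes tested were higher and 7.07% lower in myocytes. MYBPC1, SYNPO2L and ACTN2 did not pass. Cardiac sums came from E16 and myocyte sums from later stages, so stage and cell type cannot be told apart in this comparison.

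NEB separated the gated cell types by presence, where cells that met both gates had been left out. Myocytes held 833 and 1266 CPM at E18, 1167 and 802 CPM at E21 and 765 and 801 CPM at E28, a total of 11871 UMIs, and the 131 cardiac cells held no UMI of NEB. The summed level was at least 249-fold higher in myocytes, with the cardiac group set to the floor of 3 counts (adjusted p = 4.42e-05). The wider gate held none in 400 cells either, which allows a UMI in at most 0.750% of cells and gives at least 623-fold. MYBPC3 did the reverse. It was at 755 and 729 CPM in the cardiac cells of E16-ZZ and E16-DZ, 636 UMIs in all, and 2 UMIs were found in 2213 myocytes. The ratio of the summed levels was 5060 (95% interval 1390 to 41900, counting error only), and the fitted log2 difference was -11.81 (SE 0.44, adjusted p = 2.29e-06).

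MYOZ2 was at 36.9 and 44.5 CPM in E18 myocytes and at 370, 271, 254 and 347 CPM in E21 and E28 myocytes, against 1 UMI in the 131 cardiac cells. The ratio of the sums was 254 (95% interval 45.5 to 10000), and the log2 difference passed with all libraries (7.43, SE 1.88, adjusted p = 0.0328) but not with E16-ZZ (adjusted p = 0.137), E16-DZ (0.337), E21-ZZ (0.0520) or E21-DZ (0.0587) left out, nor with lax gates (log2 difference 4.17, adjusted p = 0.190). The wider gate held 9 UMIs of MYOZ2 in 400 cells, at 1.66 to 12.1 CPM in its 4 sums. MYBPC1 had 1771 UMIs in myocytes and none in cardiac cells, at least 37.1-fold higher, but did not pass (adjusted p = 0.137). With the wider gate, where 1 UMI was found, it did (log2 difference 7.60, SE 1.80, adjusted p = 0.00847).

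The genes present in both muscles differed by less. SMPX was at 710 and 502 CPM in cardiac cells and at 50.5 to 129 CPM in myocytes (log2 difference -2.68, SE 0.32, adjusted p = 0.00103). CSRP3 was at 604 and 555 CPM in cardiac cells and at 44.7 to 195 CPM in myocytes (log2 difference -2.52, SE 0.40, adjusted p = 0.00404). MYOM1 was at 247 and 439 CPM in cardiac cells and at 79.6 to 162 CPM in myocytes (log2 difference -1.58, SE 0.29, adjusted p = 0.00866). The cardiac gate counts UMIs of TNNI3, a contractile gene, whereas the myocyte gate asks for none. Between 41.8% and 59.3% of myocytes thinned to 2000 UMIs had no UMI of MYH3 and MYL1. Of thinned cardiac cells, SMPX was found in 74.1% and 55.9%, CSRP3 in 51.9% and 57.0% and MYOM1 in 40.7% and 58.1%. In thinned myocytes with 20 or more UMIs of MYH3 and MYL1 the means were 64.8%, 49.5% and 70.5% (n = 3 libraries of E21 and E28, 139 cells). In E21-DZ, left out with 19 such cells, the shares were 31.6%, 57.9% and 42.1%. The part of this choice of cells in the differences was not tested. Without E16-ZZ or without E16-DZ, CSRP3 (adjusted p = 0.104 and 0.0585) and MYOM1 (0.0599 and 0.254) did not pass, and neither did CSRP3, MYOM1, SMPX and MYOZ2 at a mitochondrial limit of 5% (0.233, 0.342, 0.110 and 0.163) or with stricter gates (0.147, 0.108, 0.119 and 0.142). ACTN2 was at 634 and 610 CPM in cardiac cells, within the range of 136 to 793 CPM in myocytes (adjusted p = 0.753), and SYNPO2L at 201 and 204 CPM, within 120 to 375 CPM (adjusted p = 0.747).

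At E18 both cell types came from the same libraries, so the wider cardiac gate allowed a comparison within a stage, with the library as a block and 1 residual degree of freedom. This fit was added after the counts had been seen, and 9.57% of 5278 genes were higher and 11.2% lower in myocytes. The wider gate takes only cells with at least 10 UMIs of contractile genes, whereas the myocyte gate asks for none, and 59.3% and 50% of thinned E18 myocytes had no UMI of MYH3 and MYL1. Cells were thus chosen for contractile RNA on the cardiac side alone. Lists of other cell types also differed between cardiac cells and myocytes. The epithelial list was at 2574.5 and 2511 CPM against 592 and 402 CPM. The smooth muscle list was at 5798 and 3961 CPM against 2379 and 2229 CPM, and the neural list at 344 and 327.5 CPM against 2439 and 2603 CPM. Erythroid list genes were at 5997 and 146 CPM against 1047 and 174.5 CPM. The part of these in the differences was not tested. NEB had 1169 UMIs in 154 myocytes and none in 86 cardiac cells, at least 176-fold higher, and MYBPC3 had 238 UMIs in the cardiac cells and none in the myocytes, at least 176-fold lower. MYOZ2 was at 36.9 and 44.5 CPM in myocytes and 12.1 and 6.07 CPM in cardiac cells (log2 difference 1.98, SE 0.61, adjusted p = 0.00908). Its cardiac values rest on 5 UMIs over both libraries, near the floor of 3 counts. SYNPO2L was at 245 and 375 CPM against 142 and 121 CPM and was higher in myocytes (1.16, SE 0.24, adjusted p = 1.32e-05). ACTN2 was at 136 and 144 CPM against 359 and 230 CPM and was lower in myocytes (-1.08, SE 0.22, adjusted p = 2.21e-05). CSRP3, SMPX and MYOM1 were lower in myocytes here too (-2.40, -2.35 and -1.26, adjusted p of 1.04e-05 or less). With 1 residual degree of freedom, these p-values rest largely on spread shared over genes and say little of the spread of a single gene. MYBPC1, with 4 UMIs in the E18 myocytes and none in the cardiac cells, was at the floor and gave no fold.

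**Figure D3:**
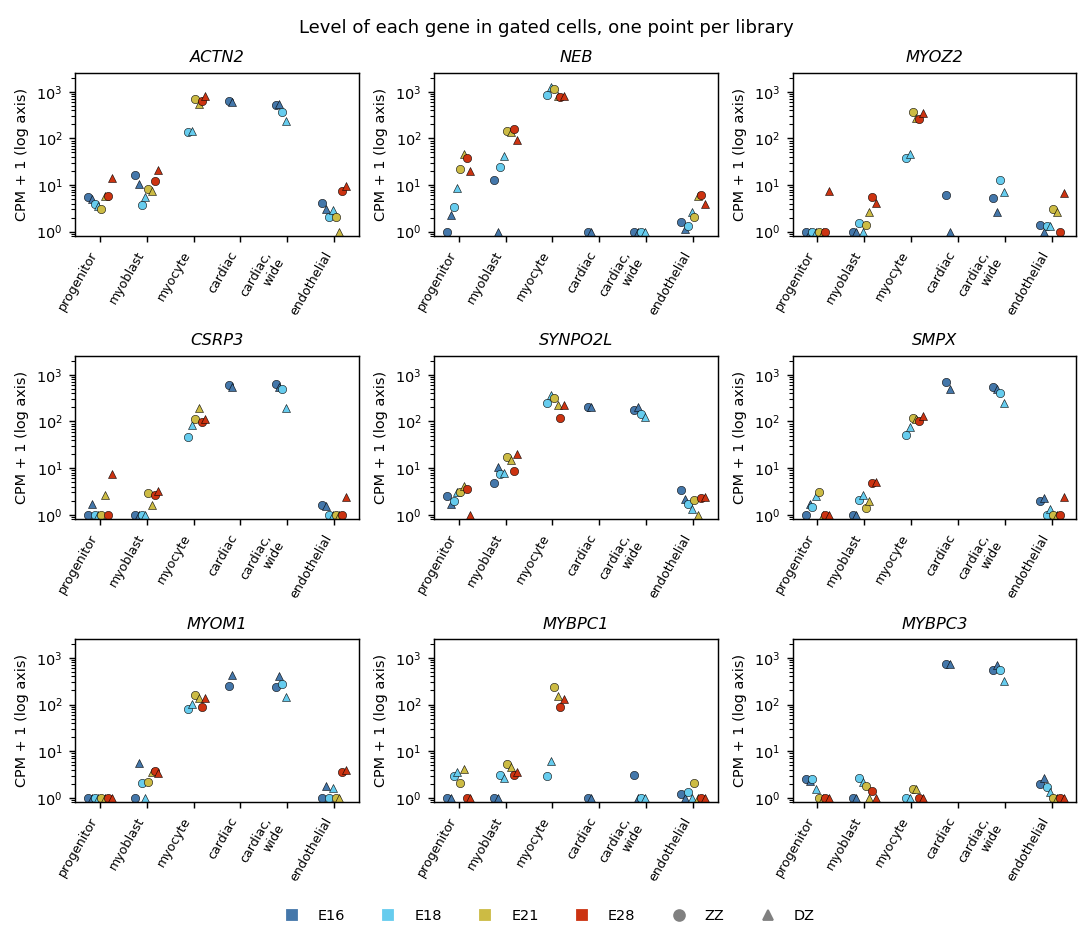
Level of each gene (CPM + 1, log axis) in sums of gated cells with at least 20 cells, 1 point per library, colored by stage and shaped by breed. NEB is high in myocytes of all 6 libraries and MYBPC1 in those of E21 and E28 alone, both at or near 0 in cardiac cells, MYBPC3 is high in cardiac cells and at or near 0 in myocytes, and the 5 genes ACTN2, CSRP3, SYNPO2L, SMPX and MYOM1 are high in both.

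Against myoblasts of the same libraries, all 8 genes that could be tested were higher in myocytes, with the library as a block (n = 6 libraries), while 19.2% of 10644 genes were higher and 21.6% lower. MYBPC3 was not tested, because 2 UMIs in myocytes and 9 in myoblasts did not pass the filter on low counts. The 8 myoblast sums held 42 UMIs of MYOM1, 47 of MYOZ2, 29 of CSRP3, 52 of SMPX and 55 of MYBPC1. These genes thus passed the filter mainly through the myocyte sums, so the count of 8 is not independent of it. The log2 differences were 7.07 for MYOZ2, 6.52 for CSRP3, 6.13 for MYOM1, 6.07 for ACTN2, 5.66 for SMPX, 5.57 for MYBPC1 and 4.50 for SYNPO2L, with SE of 0.18 to 0.32 and adjusted p of 1.49e-07 or less. MYBPC1 was low in E18 myocytes, where its values overlapped those of myoblasts. In a fit with no library block MYBPC1 did not pass the filter on low counts and was not tested. NEB had the smallest difference, 3.58 (SE 0.34, adjusted p = 1.04e-05). In myoblasts it was at 11.7 and 0 CPM at E16, 23.7 and 40.7 CPM at E18, 146 and 139 CPM at E21 and 160 and 92.4 CPM at E28, and in progenitors at 0 to 46.2 CPM. Lists of other cell types differed in the same pairs of sums. In each of the 6 libraries the fibroblast list was lower in myocytes (219 to 1415 CPM, against 767 to 4180 CPM in myoblasts), while the smooth muscle list (1990 to 2634 CPM against 150 to 1462 CPM) and the neural list (1209 to 2603 CPM against 585 to 1789 CPM) were higher. The epithelial list was lower in myocytes in each of the 6 (1.2 to 592 CPM against 2.1 to 1141 CPM). Their part in the differences was not tested.

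Per cell, with each cell thinned to 2000 UMIs and shallower cells left out (102 of 3759 myoblasts, 39 of 2213 myocytes and 90 of 2349 endothelial cells), NEB was found in a median of 11.6% of myoblasts over the 8 libraries (0 to 24.2%). In endothelial cells it was found in 0 to 3.85% and in progenitors in 0 to 7.69%. In the 4 late libraries its share was 19.6%, 19.5%, 24.2% and 14.7% of myoblasts, above the endothelial share in each. Without thinning the medians were 23.8% of myoblasts, at a median of 5538 UMIs per cell, and 1.07% of endothelial cells, at 8437 UMIs per cell. SYNPO2L was found in 0.930% to 3.12% of myoblasts against 0 to 1.54% of endothelial cells. For the other 7 genes the median share of myoblasts was 0.814% or less. Among myocytes NEB was found in 53.1% to 84.1%, ACTN2 in 20.3% to 54.7% and SYNPO2L in 15.2% to 46.6%, followed by MYOZ2 in 5.08% to 23.6%, CSRP3 in 6.07% to 17.9%, MYOM1 in 8.47% to 15.6%, SMPX in 7.07% to 14.1% and MYBPC1 in 0 to 15.6%. MYBPC3 was found in 0 of 2174 thinned myocytes, so that at most 0.138% may hold a UMI. Without thinning, at a median of 5833 UMIs per myocyte, NEB was found in 72.0% to 96.8%, ACTN2 in 41.1% to 69.5%, SYNPO2L in 25.7% to 70.5%, MYOZ2 in 13.6% to 30.4%, MYOM1 in 16.9% to 28.4%, CSRP3 in 10.6% to 25.5%, SMPX in 11.0% to 23.5% and MYBPC1 in 1.69% to 20.7% of myocytes.

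Within myocytes, 6 of 8 genes tested were higher at E21 than at E18 and none was lower, in a contrast added after the counts had been seen (n = 2 libraries per stage, 2 residual degrees of freedom), while 5.97% of 9408 genes were higher and 4.71% lower. The difference was largest for MYBPC1. It was at 1.94 and 5.13 CPM in E18 myocytes, 4 UMIs in 154 cells, and at 240 and 155.1 CPM in E21 myocytes (log2 difference 5.86, SE 0.43, adjusted p = 1.97e-10). MYOZ2 (3.09, SE 0.25) and ACTN2 (2.27, SE 0.20) followed, ACTN2 with 136 and 144 CPM at E18 and 682 and 557 CPM at E21. CSRP3 (1.40, adjusted p = 0.00021), SMPX (1.01, adjusted p = 0.00328) and MYOM1 (0.87, adjusted p = 0.00927) differed by less. NEB (0.03, adjusted p = 0.961) and SYNPO2L (-0.00, adjusted p = 0.997) did not pass. NEB was at 833 and 1266 CPM at E18 against 1167 and 802 CPM at E21, and SYNPO2L at 245 and 375 CPM against 322 and 230 CPM. MYOM1 was lost without E18-ZZ (adjusted p = 0.0993), E18-DZ (0.112) or E21-ZZ (0.111), and SMPX without E18-ZZ (0.111). At a mitochondrial limit of 5%, SMPX (log2 difference 0.28, adjusted p = 0.827) and MYOM1 (0.74, adjusted p = 0.385) did not pass, nor did MYOM1 by DESeq2 (adjusted p = 0.0766). Markers of other cell types moved with the stage in the same myocyte sums. The epithelial list summed to 592 and 402 CPM at E18 and 6.1 and 11.2 CPM at E21, and the fibroblast list, all 7 genes found, to 253 and 219 CPM at E18, 827 and 803 CPM at E21 and 1293 and 1415 CPM at E28. The neural list summed to 2439 and 2603 CPM at E18, 2120 and 1435 CPM at E21 and 1209 and 1286 CPM at E28. Their part in the differences between stages was not tested.

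Between E28 and E21 myocytes, 2 of 8 genes were lower at E28 and none was higher, while 4.16% of 9408 genes were lower and 1.98% higher. MYBPC1 was at 240 and 155.1 CPM at E21 and 86.4 and 132 CPM at E28 (log2 difference -0.94, SE 0.21, adjusted p = 0.00454). SYNPO2L was at 322 and 230 CPM at E21 and 120 and 229 CPM at E28 (-0.81, SE 0.21, adjusted p = 0.0196). Neither passed without E21-ZZ (adjusted p = 0.352 and 0.557) or without E28-ZZ (0.310 and 0.405). Neither passed by DESeq2 (adjusted p = 0.134 and 0.144). ACTN2 was at 641 and 793 CPM at E28 (adjusted p = 0.790 against E21), and MYOZ2 at 254 and 347 CPM (adjusted p = 0.698). With single libraries left out, NEB, at 765 and 801 CPM, passed without E21-DZ (log2 difference -0.72, adjusted p = 0.00032), CSRP3 with either ZZ library left out (adjusted p = 0.0025 and 0.0018) and MYOM1 with either DZ library left out (adjusted p = 0.0173 and 0.0487).

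The share of myocytes with a UMI of each gene was set beside the UMIs of MYH3 and MYL1. These encode the embryonic myosin heavy chain and a fast myosin light chain and were in no gate. Myocytes thinned to 2000 UMIs were divided by their UMIs of both genes into 4 bins of 0, 1 to 4, 5 to 19 and 20 or more, and shares are means over libraries with at least 20 cells in the bin. NEB was found in 48.2% ± 11.5 (SD, n = 6 libraries) of myocytes with none of MYH3 and MYL1, ACTN2 in 18.1% ± 11.7 and SYNPO2L in 14.5% ± 8.4. The other 6 genes were found in at most 0.972% of these cells. With 1 to 4 UMIs, the share was 74.7% for NEB, 59.0% for ACTN2 and 30.7% for SYNPO2L (n = 5 libraries), against 1.03% to 6.87% for MYOM1, MYOZ2, CSRP3, SMPX and MYBPC1. With 5 to 19 UMIs it reached 56.8% ± 18.9 for MYOZ2, 37.6% ± 11.3 for MYOM1, 36.6% ± 11.0 for CSRP3, 30.9% ± 11.4 for SMPX and 22.6% ± 19.3 for MYBPC1 (n = 5). With 20 or more it was 86.0% for MYOZ2, 70.5% for MYOM1, 69.8% for MYBPC1, 64.8% for SMPX and 49.5% for CSRP3 (n = 3). E21-DZ, with 19 cells in this bin, was not among the 3, and there the shares were 84.2% for MYOZ2, 42.1% for MYOM1, 73.7% for MYBPC1, 31.6% for SMPX and 57.9% for CSRP3. MYBPC3 was found in no cell of any bin. These shares are a description, since cells of a library are not replicates and cells with more contractile RNA were chosen by the bins. A gene of low level is found in fewer cells at 2000 UMIs, so a later onset and a lower level cannot be told apart.

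**Figure D4:**
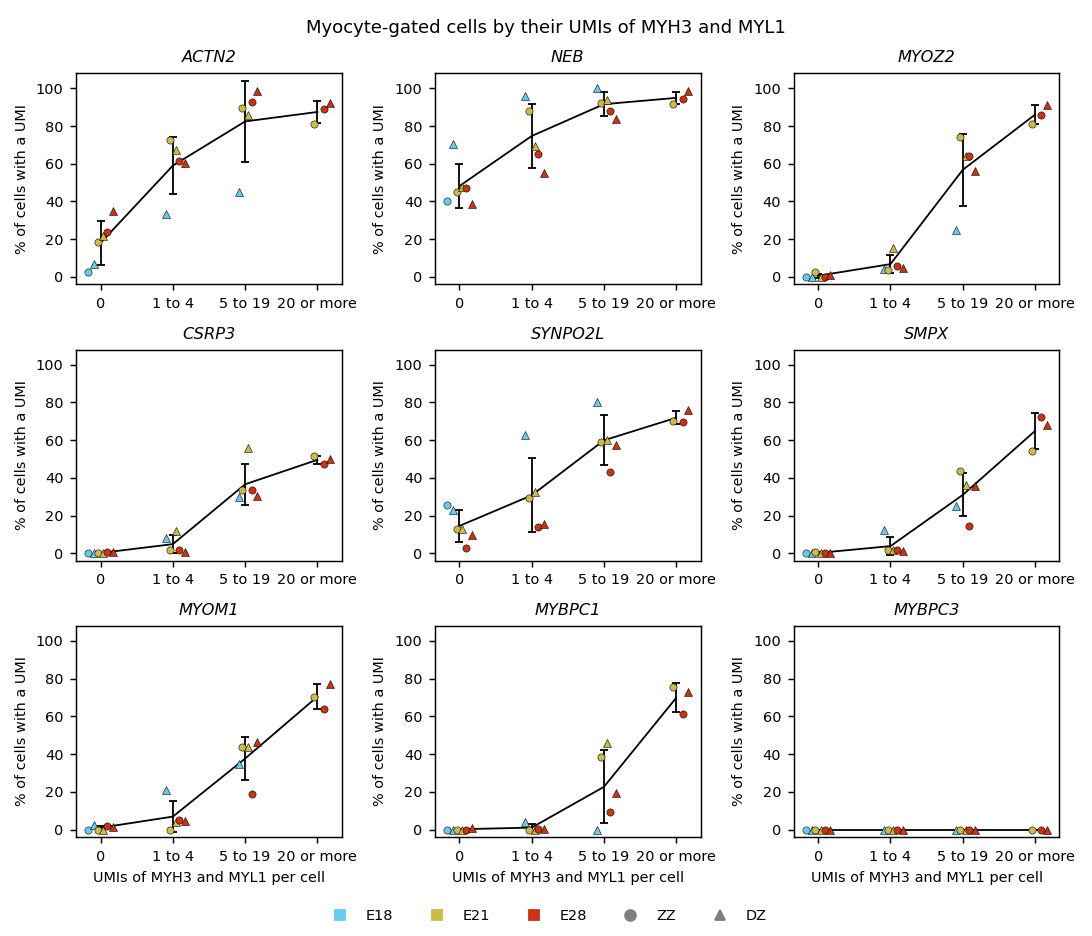
Share of myocytes with a UMI of each gene (%, y axis) by their UMIs of MYH3 and MYL1 (x axis, 4 bins), all cells thinned to 2000 UMIs. Points are libraries with at least 20 cells in the bin, and lines and bars are their mean and SD. NEB, ACTN2 and SYNPO2L are found in a mean of 48.2%, 18.1% and 14.5% of cells in the lowest bin, where the other 6 genes are at a mean of at most 0.972%. In that bin ACTN2 is lowest at E18 and SYNPO2L is lowest at E28.

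The share of cells with MYBPC1 was set beside the stage within a bin. Of myocytes with 5 to 19 UMIs of MYH3 and MYL1, it was found in 0 of 10 cells in E18-ZZ (at most 30% by a floor of 3 cells), in 0 of 20 cells in E18-DZ (at most 15%), in 38.5% and 46.0% at E21-ZZ and E21-DZ, and in 9.52% and 19.2% at E28-ZZ and E28-DZ. Both E21 shares lay above these limits. E28-ZZ lay below both limits, and E28-DZ lay above that of E18-DZ and below that of E18-ZZ. The limits count cells of single libraries, which are not replicates of a stage, so a difference between stages was not tested here. ACTN2 in the same bin was found in 50% and 45% at E18 and in 86.0% to 98.6% at E21 and E28. NEB was found in 83.6% to 100% at every stage. The E18 libraries held 10 and 20 cells in this bin and none in the bin of 20 or more UMIs, which held 6.6% to 13.4% of myocytes at E21 and E28. The composition of the myocytes therefore differed between stages together with the levels, and its part in the stage differences was not tested.

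Of the thinned myocytes with a UMI of MYOM1, MYOZ2, CSRP3, SMPX or MYBPC1, 89.6% to 92.0% also had a UMI of NEB, against 59.4% of all 2174 thinned myocytes. For ACTN2 the share was 84.1% to 89.4%, against 49.4% of all. Over the 4 libraries with at least 20 such cells the shares were 85.7% to 97.7% for NEB and 78.4% to 97.4% for ACTN2. Of the 1292 cells with NEB, 61.9% had ACTN2 (24.3% to 69.9% over 6 libraries), 31.4% SYNPO2L (against 22.8% of all myocytes), 22.6% MYOZ2 (15.0%), 17.8% MYOM1 (11.5%), 13.3% SMPX (8.7%), 13.2% CSRP3 (8.6%) and 12.2% MYBPC1 (8.1%, and 0 to 21.1% of cells with NEB over 6 libraries). These shares are pooled over cells, of which E28-DZ gave 1005, and follow in part from how often each gene was found. No test was made over cells.

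In cardiac cells of the wider gate, 3 of 6 genes tested were lower at E18 than at E16 (n = 2 libraries per stage, 1 residual degree of freedom), while 1.37% of 4522 genes were lower and 1.06% higher. CSRP3 was at 627 and 561 CPM at E16 and 489 and 194 CPM at E18 (log2 difference -0.998, SE 0.26, adjusted p = 0.0119). ACTN2 was at 526.3 and 546 CPM and 359 and 230 CPM (-0.99, SE 0.26, adjusted p = 0.0105), and SMPX at 559 and 501 CPM and 404 and 243 CPM (-0.85, SE 0.26, adjusted p = 0.0413). E18-DZ held the lowest value of CSRP3, ACTN2 and SMPX, and none of these passed by DESeq2 (adjusted p = 0.0895, 0.0818 and 0.166). With RLE size factors in place of TMM, SMPX missed the threshold (adjusted p = 0.0727). MYBPC3 was at 554 and 707 CPM and 558 and 321 CPM (adjusted p = 0.203), MYOM1 at 238 and 415 CPM and 281 and 146 CPM (adjusted p = 0.178), and SYNPO2L at 176 and 206 CPM and 142 and 121 CPM (adjusted p = 0.248). Other contractile genes moved in the same direction. The cardiac list, which includes TNNT2 and MYL4 of the gate itself, summed to 23574.5 and 24067 CPM at E16 and 16144 and 10257 CPM at E18, and the smooth muscle list to 8294 and 9171 CPM and 5798 and 3961 CPM. TNNT2 was at 12247 and 12445 CPM at E16 and 8309 and 4537 CPM at E18. Erythroid list genes reached 5997 CPM in 1 of the 4 sums. The part of these in the difference was not tested.

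Between the breeds, none of the 9 genes passed in whole libraries with the stage as a block, where 0% of 15119 genes were higher and 0% lower in DZ by edgeR, with 915 at an unadjusted p under 0.05. DESeq2 called 56 genes and none of the 9. The log2 differences, DZ against ZZ, were -0.04 to 0.65 with SE of 0.20 to 0.40. In myocytes none of 8 genes tested passed (n = 3 libraries per breed), where 0.276% of 9408 genes were higher and 0.0638% lower in DZ, with 602 at an unadjusted p under 0.05. DESeq2 called 11 genes and none of the 8. Of the 8, CSRP3 differed most, at 82.1, 195 and 113 CPM in DZ and 44.7, 111 and 96.5 CPM in ZZ at E18, E21 and E28. DZ was higher at each of the 3 stages (log2 difference 0.63, SE 0.18, adjusted p = 0.162). SYNPO2L passed with the E21 libraries left out (log2 difference 0.77, adjusted p = 0.00362). Only stages with both breeds entered this fit in myocytes, so leaving out 1 library left out its stage. The late against early difference was not called different between the breeds for any of the 9 (edgeR interaction term, 0 of 15119 genes called, 124 at an unadjusted p under 0.05). Whole libraries were not matched for cell types, and E28-DZ held the most myocytes, 1022 of its 10956 cells. The part of this in the differences between the breeds was not tested.

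Of 41 other genes of the sarcomere, listed with earlier results of these data known, 38 had a row. In whole libraries 14 of 36 tested were higher in late libraries and 2 were lower (16.7% and 17.7% of all genes), with a median log2 difference of 0.82 against 0.02 over all genes. The largest differences were those of MYOT, the Z-disc protein myotilin (6.43, adjusted p = 0.00217), MYOM3, a myomesin (4.73, adjusted p = 0.00535), and MYPN, myopalladin (3.09, adjusted p = 0.0154). NEBL, nebulette, the nebulin relative of the heart, fell by 1.96 on the log2 scale (adjusted p = 0.00731), and CSRP2, a LIM protein related to CSRP3, by 0.56 (adjusted p = 0.0209). Between myocytes and cardiac cells, 9 of 32 were higher in myocytes and 6 in cardiac cells (5.76% and 7.07% of all genes), with a median of 0.14 against 0.10 over all genes. MYBPH, XIRP2 and SYNPO2 were at 0 UMIs in cardiac cells, and NEBL was at a mean of 571 CPM in cardiac cells and 27.6 CPM in myocytes after scaling for composition (log2 difference -4.42, adjusted p = 0.000696), the opposite direction to NEB. PDLIM5 (-2.82, adjusted p = 0.00171) and LDB3 (-2.46, adjusted p = 0.00244), PDZ and LIM domain proteins of the Z-disc, followed among those higher in cardiac cells.

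Against myoblasts, 28 of 32 of these genes were higher in myocytes and 1 was lower (CSRP2, log2 difference -0.30, adjusted p = 0.0399), where 19.2% and 21.6% of all genes were, with a median of 3.68 against -0.05 over all genes. KLHL40, a nebulin-binding protein (7.07), MYOT (6.89) and MYBPH, a relative of myosin-binding protein C (6.87), differed most. From E18 to E21, 10 of 32 were higher and 3 lower in myocytes (5.97% and 4.71% of all genes, median 0.30 against 0.03), with MYOT (4.19), FHL1 (2.18) and CRYAB (2.06) at the head and NRAP (-1.94) and DES, desmin (-1.19), among the lower. From E21 to E28 none was higher and 16 of 32 were lower (1.98% and 4.16% of all genes), led by MYOZ1 (-1.72), NEBL (-1.64) and LMOD2 (-1.45), and the median was -0.78 against 0.00 over all genes. In cardiac cells 2 of 21 were lower at E18 than at E16, where 1.37% of all genes were, TCAP (-1.04) and NEXN (-1.02). Between the breeds none passed in whole libraries (36 tested) or in myocytes (32 tested).

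Over 32 sums of gates and libraries, the log2 levels of the genes expressed in both muscles ran together. Pearson's r was 0.97 for CSRP3 and SMPX, 0.96 for MYOM1 and SMPX, 0.95 for MYOM1 and ACTN2 and 0.94 for MYOM1 and SYNPO2L. It was 0.79 for NEB and MYBPC1, 0.86 for MYOZ2 and MYBPC1 and -0.38 for NEB and MYBPC3. Outside these genes and those of the gates, the most alike were LDB3 for CSRP3 (0.97) and SMPX (0.98), SMYD1 for MYOM1 (0.97), TNNI1 for SYNPO2L (0.97), HSPB3 for ACTN2 (0.96) and SYTL2 for NEB (0.96). STAC3 was nearest to MYOZ2 (0.95), COL22A1 to MYBPC1 (0.94) and VIL1 to MYBPC3 (0.97). Sums of a library share its cells, depth and stage, so these values describe the sums and carry no p. There were 8 sums each of progenitors, myoblasts and endothelial cells, 6 of myocytes and 2 of cardiac cells. The genes were grouped as expressed in both muscles from these same sums, so a high r among them follows in part from that grouping. The values of MYBPC3 rest on the 2 cardiac sums, where it was high.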

How the data were processed

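The authors aligned the 10x 3′ reads to Sscrofa11.1 with an Ensembl annotation, counted them with Cell Ranger (3.1.0 for E16, 3.0.2 for later stages, per the file headers and the submitters' processing notes), and deposited the raw UMI counts per gene and barcode for 8 libraries, each a pool of 5 embryos. Barcodes with at least 200 genes, at most 30000 UMIs and at most 10% mitochondrial UMIs were kept. The barcodes with the highest Scrublet scores (scanpy 1.11.5) were removed at a rate rising with the number of barcodes, 8247 in all, where its automatic threshold marked 778. For 680 rows without a symbol, the name came from a table of gene IDs. Counts were summed per library and gate (at least 20 cells) and tested with edgeR 4.0.16 (quasi-likelihood test, TMM, filterByExpr, Benjamini-Hochberg over all genes tested at 0.05), in scripts tested on simulated data. TMM is a scaling for library composition. DESeq2 1.42.0, RLE size factors, no filter on low counts, a mitochondrial limit of 5%, no doublets removed, laxer and stricter gates, other blocks and leaving out each library were alternatives. Intervals and floors (3 counts) cover counting error only. The genes and lists were chosen with earlier results of these data known. The genes named are those described, up to 3 other sarcomere genes per direction and comparison by size among those called, and the most correlated gene of each, except 1 result that is not reported here. MYL7, NPPA and MYH6, planned for the cardiac gate, and SOX2, planned as an exclusion, had no row under these symbols, so the gates used the remaining genes. Sequences are from RefSeq on Sscrofa11.1, matched by symbol for 10 of 10 genes.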

Additional observations from a re-analysis of the deposited data

Results flagged for a closer look

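Of 38 groups of 4 or more values tested for a single value far from the others, 3 held one, where chance alone gives about 1 in 20. MYOM1 was at 9.928 CPM in E16-DZ, against 2.252 to 3.287 CPM in the other 3 early libraries. It was at 21.42 CPM in E28-DZ, against 7.143 to 7.881 CPM in the other 3 late libraries. SYNPO2L was at 37.35 CPM in E28-DZ, against 11.58 to 15.93 CPM in the other 3 late libraries. E16-DZ held 240 cells of the wider cardiac gate, the most of any library, and E28-DZ 1022 myocytes, likewise the most. The part of either in these values was not tested.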

How the results depend on the processing

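Of 911 values of single genes under alternatives, 50 had the other sign than the value reported, for example NEB in myocytes at E21 against E18 (-0.42 to 0.43), and in 0 of the 50 did the gene pass under either setting. Of the values of single genes under other settings, 467 kept their side of the threshold, 12 newly passed and 24 no longer did. With a library left out, 383 kept it, 7 newly passed and 18 no longer did. For late against early, 5 genes were higher, 3 without the E28 libraries, 8 without cells of the wider cardiac gate (which lowers early levels alone) and 4 to 5 with 1 library left out. For myocytes against cardiac cells, 2 were higher, but 1 at a mitochondrial limit of 5%, with lax gates and with strict gates, 3 by DESeq2, with no filter on low counts, with the wider gate and with the wider gate at E18 alone, and 1 to 2 with a library left out. In the same comparison 4 were lower, but 1 at a limit of 5% and with strict gates, and 2 to 4 with a library left out. For E28 against E21 myocytes, 2 were lower, but 0 by DESeq2, 4 at a limit of 5%, 1 each with no doublets removed, lax gates and strict gates, and 1 to 4 with a library left out. In cardiac cells at E18 against E16, 3 were lower and 0 by DESeq2. Between the breeds in myocytes none was higher, but 1 with no filter on low counts (CSRP3) and 0 to 1 with a library, and so its stage, left out. The cause of these changes was not tested. With a library left out, the late minus early difference in the share of cells was -0.589 to -0.263 percentage points in the cardiac and 3.089 to 5.306 in the myocyte gate (p = 0.0571, the smallest that 3 against 4 allows in an exact permutation test).

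Over all genes, the count called in myocytes against cardiac cells was 1152, and 83 at a mitochondrial limit of 5%, 565 with lax gates, 301 with strict gates, 2105 with the wider gate and at most 328 with either E16 library left out. For late against early it was 5045, and 2549 without the E28 libraries, 1338 without the E16 libraries and 2966 without E16-DZ. For myocytes against myoblasts it was 4343, and 2349 with no library block, where 7 of the genes were higher and MYBPC1 was not tested. For E28 against E21 myocytes it was 577, 144 by DESeq2, 354 without E21-DZ and 325 without E28-DZ. For E21 against E18 myocytes it was 1005, 424 by DESeq2, 274 at a limit of 5% and 533 without E18-DZ. In cardiac cells it was 110, 15 by DESeq2 and 61 with RLE size factors. Between the breeds in whole libraries it was 0, and 56 by DESeq2. In myocytes it was 32, 11 by DESeq2, 91 with no filter, 70 at a limit of 5%, 17 with lax gates, 12 with strict gates, 0 with no stage block and 16 to 101 with a library, and so its stage, left out.

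No paired analysis by replicate number was possible because each stage and breed had 1 library. The blocks used were the library, where it held both gates, and the stage, between the breeds. A fit of E18 libraries alone with the first cardiac gate was not run, nor was E18 against E16 in that gate, since E18 held fewer than 20 cells in it, and the E18 against E16 fit with a library left out has no residual degrees of freedom. The 131 cells of the cardiac gate and 154 E18 myocytes limit the values at these stages.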
